A study of Homo sapiens with 27 samples.

Results

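The comparison described here set endothelial cells seeded on the matrix of senescent stromal cells against the same cells seeded on the matrix of young stromal cells. Its members are 6 of 27 RNA-seq libraries, 3 on senescent matrix and 3 on young matrix (replicates 2 to 4 of each), chosen by their titles. Replicate 1 of each group is shown apart because it carries RNA of stromal cells. All libraries were labelled as EA.hy926, an established line of wild-type genotype that arose as a hybrid of umbilical vein endothelium and A549 lung carcinoma cells. The matrix came from ASC52telo, a single adipose-derived mesenchymal stromal cell (MSC) line immortalised with the telomerase gene TERT. For the senescent group, the MSCs were made senescent with mitomycin C, which crosslinks DNA (18 h at 1.5 µg/mL), and stayed in culture for 10 more days. For the young group, the MSCs were untreated. In both groups a 5 min wash in 20 mM NH4OH with 0.5% Triton X-100 removed the MSCs, and EA.hy926 cells then grew on what was left for 48 h. The other libraries used are those with conditioned medium (CM) of senescent or young MSCs mixed into the culture medium, those from direct co-culture with senescent or young MSCs, and those of control cells with no MSC product, all in replicates 2 to 4. The labels do not say whether replicates were separate cultures, so the p-values below refer to the spread among libraries, part or all of which may be technical.

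Decellularised matrix keeps collagens, fibronectin, laminins and proteoglycans together with growth factors bound to them. Endothelial cells sense it through integrins, which recruit talin, vinculin and other adaptors to focal adhesions and signal to the actin cytoskeleton and to the transcriptional coactivator YAP. Senescent cells have left the cell cycle and secrete a mixture of cytokines, proteases and matrix proteins known as the senescence-associated secretory phenotype. The comparison asks whether that difference between MSCs reaches endothelial cells through the matrix alone.

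Total counts of the 6 libraries ran from 80594722 to 95512187. Endothelial markers were present throughout. PECAM1, an adhesion receptor at endothelial junctions, was at 455, 507 and 457 CPM on senescent matrix, against 429.8, 468 and 628 CPM on young matrix. The 8 endothelial markers summed to between 1553 and 1905 CPM (counts scaled to a common library size) on senescent matrix and between 1665 and 1995 CPM on young matrix. The 10 stromal markers summed to between 16.3 and 29.9 CPM on senescent matrix and between 17.0 and 32.8 CPM on young matrix, with none at 0 and 2 (PDGFRA and LUM) under 1 CPM in all 6 libraries. In replicate 1 the same stromal markers summed to 5926 CPM on senescent matrix and 5044 CPM on young matrix. COL1A1, the main chain of type I collagen, was at 2281 CPM in the senescent library and 1887 CPM in the young library of replicate 1, and at 8.0, 6.28 and 4.28 CPM on senescent matrix, against 7.78, 10.3 and 5.05 CPM on young matrix in the other 6. These are bulk samples, so fewer cells of a type and less RNA per cell cannot be told apart. Young replicate 3 stood apart from the other 5 libraries on the first principal component, which held 46.1% of the variance. Against the mean of the other 5 libraries, protein-coding genes in the shortest of 4 equal classes of transcript length were higher there (median log2 difference 0.37) and those in the longest class were lower (median -0.45; 9633 genes of at least 5 CPM over the 4 classes). Over 10112 genes of at least 5 CPM, the median absolute log2 difference was 0.06 between the senescent and young libraries of replicate 2, 0.30 for replicate 3 and 0.24 for replicate 4. Between senescent and young libraries of unlike number it was 0.10 to 0.38. It was 0.13 to 0.23 among the 3 senescent libraries and 0.08 to 0.43 among the 3 young libraries. The value of 0.08 is that of young replicates 2 and 4. No distance between the matrices exceeded the largest among the young libraries, but young replicate 3 set that largest value.

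No gene was called higher or lower on senescent than on young matrix. Of 18015 genes tested, 0 (0%) passed an adjusted p of 0.05 in edgeR's quasi-likelihood test, and the lowest adjusted p was 0.999914. There were 141 genes (0.783%) at an unadjusted p under 0.05, 57 higher and 84 lower. That share is smaller than the 0.05 that evenly spread p-values would give, so the test was conservative here and small changes may be missed. DESeq2 also called 0 genes, and so did the edgeR fit with the replicate number as a block, with 189 genes at an unadjusted p under 0.05. In 557 genes (3.09%) the 3 senescent and the 3 young libraries did not overlap, fewer than a random order of these libraries would give.

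A missed test does not show that groups are alike, so each gene's difference was also bounded. A gene counts here as bounded within 2-fold when 2 one-sided tests together placed its log2 fold change between -1 and 1 at an adjusted p under 0.05. By this measure 14792 genes (82.1%) were bounded within 2-fold, and 7227 (40.1%) within 1.5-fold. The 95% interval itself lay inside 2-fold for 14008 genes (77.8%). The bounds depended on level. Among 6883 genes with a mean between 10 and 100 CPM, 6850 (99.5%) were bounded within 2-fold, and among 1992 genes of 100 CPM or more, 1986 (99.7%) were. Between 1 and 10 CPM the share was 95.6% of 3562 genes, and under 1 CPM it was 45.7% of 5578 genes. The median half-width of the interval was 0.41 on the log2 scale at 100 CPM or more, which is a factor of 1.33, and 0.90 under 1 CPM, a factor of 1.87. The bounds within 1.5-fold rested on having all 6 libraries: without 1 library at a time their number ran from 0 (without senescent replicate 2, or without young replicate 4) to 4445 (without young replicate 3).

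**Figure D1:**
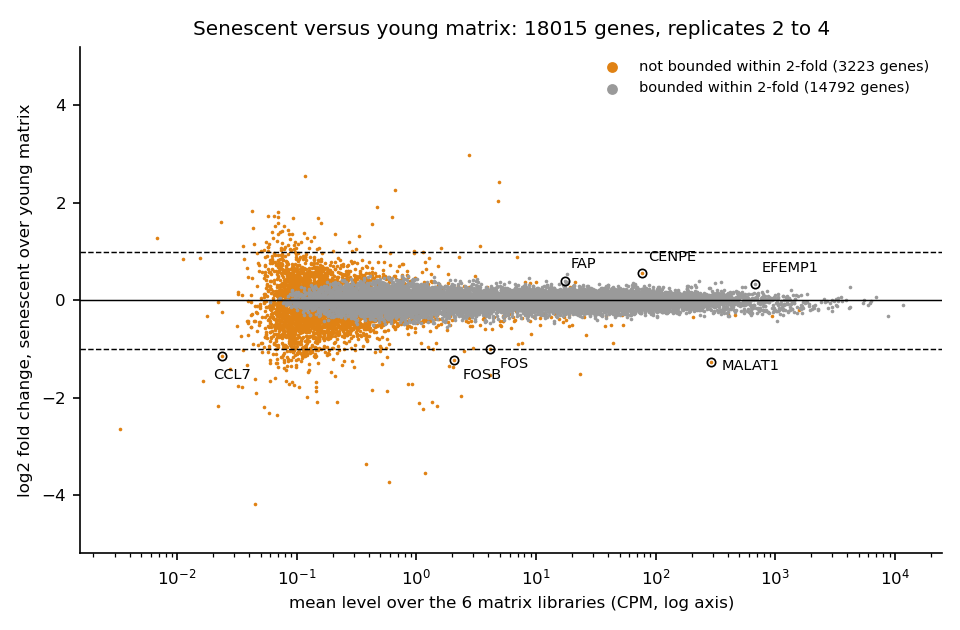
Log2 fold change of each of 18015 genes, senescent over young matrix (vertical axis), against its mean level over the 6 matrix libraries in CPM (horizontal log axis). Grey points are the 14792 genes bounded within 2-fold, orange points the other genes, dashed lines mark 2-fold, and 7 genes are ringed; the orange points lie mostly under 1 CPM.

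At 10 CPM or more, 39 genes were not bounded within 2-fold, and 0 of them had an unadjusted p under 0.05. MALAT1, an abundant nuclear long non-coding RNA, was at 313, 100.3 and 101 CPM on senescent matrix, against 504, 504 and 219 CPM on young matrix. Its log2 fold change was -1.26 ± 0.68 (SE) with an interval of -2.71 to 0.19, and in replicate 1 the order was the other way, with 419 CPM in the senescent library and 254 CPM in the young library. EEF1D, a translation elongation factor subunit, reached 81.9 CPM in young replicate 3 and 16.8 CPM or less in both other young libraries.

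The genes nearest to a change are given by a fixed rule: protein-coding, at least 5 CPM in 1 group, no overlap between the libraries, and the 8 lowest unadjusted p on each side. None of the 16 was called. The 8 on the higher side were FAP, IKBKG, EIF3C, EFEMP1, CENPE, TLN2, ZNF304 and UGGT2. FAP (chr2:162170684-162245151, GRCh38) encodes fibroblast activation protein, a cell-surface serine protease that cleaves collagen fragments. It was at 19.9, 19.3 and 20.0 CPM on senescent matrix, against 15.9, 14.1 and 15 CPM on young matrix. All senescent libraries were above all young ones by a narrow margin, with a log2 fold change of 0.39 ± 0.14 (SE), an interval of 0.10 to 0.69 and an unadjusted p of 0.0123. Replicate 1 had 41.3 CPM in the senescent library and 49.5 CPM in the young library, the opposite order. EFEMP1 (chr2:55865967-55924139), which encodes the matrix glycoprotein fibulin-3, was at 833, 736 and 693 CPM on senescent matrix, against 641, 537 and 627 CPM on young matrix. Its log2 fold change was 0.33 ± 0.17 (SE), with an interval of -0.04 to 0.69, and replicate 1 again had the opposite order, with 699 CPM in the senescent library and 944 CPM in the young library. TLN2, a talin that links integrins to actin, was at 5.09, 5.74 and 5.89 CPM on senescent matrix, against 4.3, 4.26 and 4.43 CPM on young matrix (log2 fold change 0.36, interval -0.06 to 0.79). CENPE, a kinetochore motor protein, was at 73.6, 67.7 and 131 CPM on senescent matrix, against 66.7, 59.7 and 59.2 CPM on young matrix, and senescent replicate 4 alone carried most of the difference: without it the log2 fold change was 0.18, against 0.56 with it. IKBKG, the regulatory subunit of the NF-kB-activating kinase, and EIF3C, a subunit of a translation initiation factor, have near-identical copies in the genome, so their counts are uncertain.

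On the lower side stood FOS, ZBTB20, TSC22D1, APOLD1, DUSP6, NFIA, LDAF1 and PPM1B. FOS (chr14:75278774-75282230) encodes a subunit of the AP-1 transcription factor that is made within minutes of a growth or stretch stimulus. It was at 3.18, 2.21 and 2.77 CPM on senescent matrix, against 7.61, 3.49 and 5.26 CPM on young matrix. The highest senescent library lay just under the lowest young one. The log2 fold change was -1.0 ± 0.29 (SE) with an interval of -1.61 to -0.39 and an unadjusted p of 0.00331, so FOS was neither called nor bounded within 2-fold. Without young replicate 2, where FOS was highest, the log2 fold change was -0.68. DUSP6 (chr12:89347232-89353271), a phosphatase that switches off the kinase ERK and is itself induced by ERK, was at 78.9, 75.5 and 64.2 CPM on senescent matrix, against 92.9, 79.2 and 98.4 CPM on young matrix. The log2 fold change of DUSP6 was -0.31 ± 0.15 (SE) (interval -0.63 to 0.01). TSC22D1 (chr13:44432143-44577147), a leucine zipper protein induced by TGF-beta, was at 88.4, 102 and 88.8 CPM on senescent matrix, against 105, 118 and 109 CPM on young matrix, with a log2 fold change of -0.25 ± 0.12 (SE). Of the 8 genes on the higher side 3 were also higher in the senescent library of replicate 1, and of the 8 on the lower side 1 was also lower there.

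**Figure D2:**
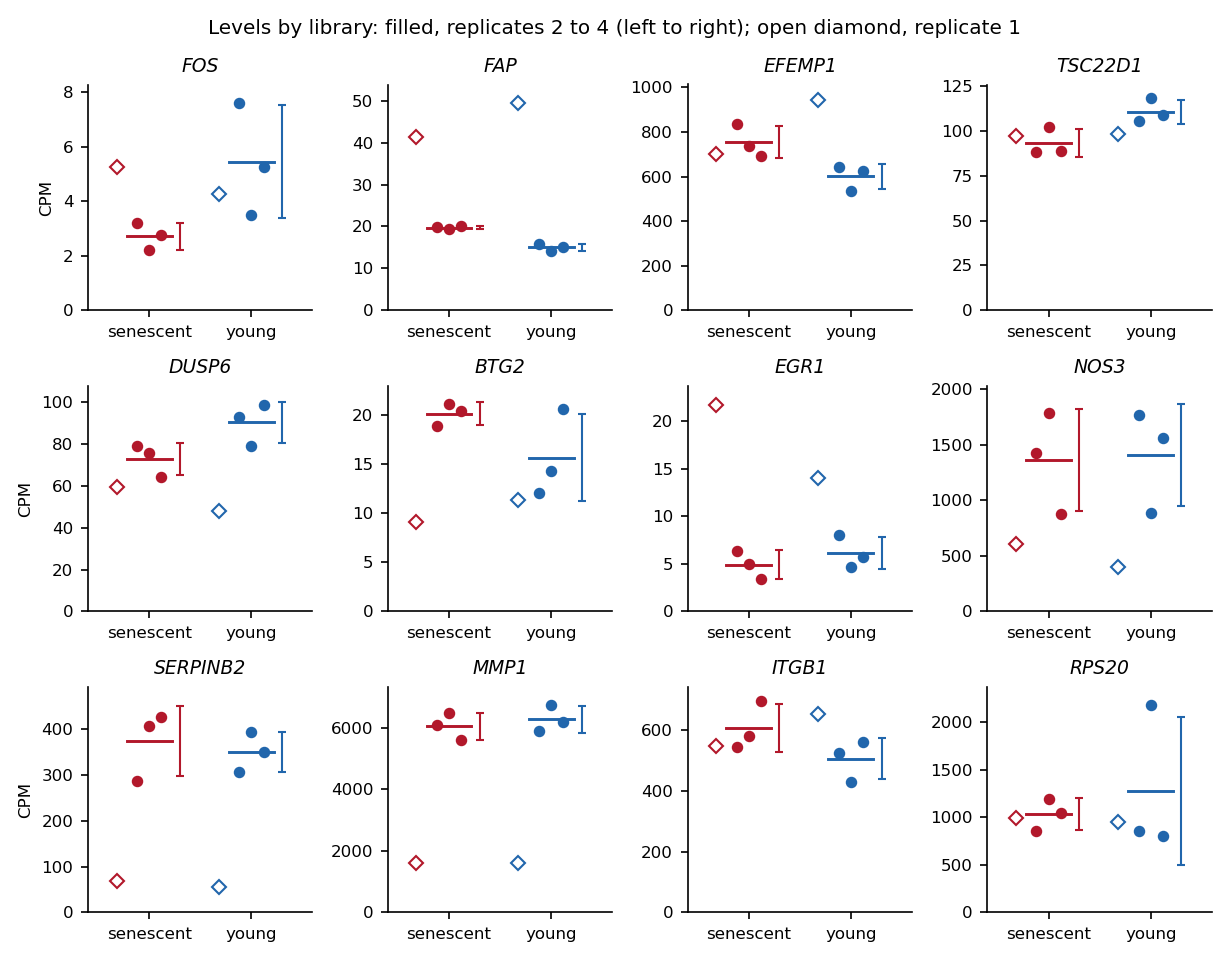
Levels of 12 genes in CPM (vertical axes start at 0) in cells on senescent matrix (red, left) and young matrix (blue, right). Filled points are replicates 2 to 4 with their mean (line) and SD (bar), and open diamonds are replicate 1; FOS, FAP, EFEMP1, TSC22D1 and DUSP6 do not overlap between the filled points, while the other 7 genes do.

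Gene groups were described by their measured members, those called, those bounded within 2-fold and their median, beside the 18015 genes as a whole (82.1% bounded, median log2 fold change -0.00). Of the 12900 protein-coding genes among them, 91.7% were bounded (median 0.01). As the bounds depend on level, the share bounded in a group is not read as a trait of that group. No member of any of the 27 groups was called, against 0% of all genes. The first groups concern how cells hold and read matrix. Of 44 integrins and focal adhesion genes, 42 were bounded and the median log2 fold change was 0.02. ITGB1, the beta chain shared by most collagen, laminin and fibronectin receptors, was at 545, 579.5 and 695 CPM on senescent matrix, against 524, 429.7 and 561 CPM on young matrix. ITGA5, the fibronectin receptor's alpha chain, was at 918, 969 and 636 CPM on senescent matrix, against 887, 537 and 945 CPM on young matrix, and in both genes the groups overlapped. The intervals were -0.17 to 0.70 for ITGB1 and -0.41 to 0.59 for ITGA5. All 28 targets of YAP and of the actin-regulated factor SRF were bounded (median 0.04). ANKRD1, a widely used YAP target, was at 284, 352 and 546 CPM on senescent matrix, against 262, 394 and 251 CPM on young matrix (interval -0.23 to 0.99), and CCN1, a secreted integrin ligand, at 350.1, 300.2 and 262 CPM on senescent matrix, against 320.0, 209 and 237 CPM on young matrix (interval -0.19 to 0.70).

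The next groups concern matrix that the endothelial cells make, cut and remodel. Of 24 basement membrane genes 23 were bounded (median 0.03), of 38 matricellular and matrix assembly genes 34 (median 0.06), and of 35 matrix proteases and their inhibitors 31 (median -0.01). LAMC1, a laminin chain, was at 679.7, 627 and 471 CPM on senescent matrix, against 688, 339 and 664 CPM on young matrix. The low value of LAMC1 in young replicate 3 recurred in the group: basement membrane genes made up 0.206% of counts there, against 0.427% and 0.428% in the other young libraries. The share was 0.414%, 0.361% and 0.293% in senescent replicates 2, 3 and 4. Genes of the longest transcript class were lower as a whole in young replicate 3 (median -0.45), and the part of length in this share was not tested. MMP1, an interstitial collagenase and among the most abundant messages, was at 6101, 6473 and 5598 CPM on senescent matrix, against 5907, 6743 and 6186 CPM on young matrix, and its log2 fold change of -0.05 ± 0.14 (SE) had an interval of -0.36 to 0.25. Of 33 genes of the TGF-beta and BMP response, 29 were bounded (median -0.01).

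The next groups cover endothelial functions. All 30 endothelial identity genes were bounded (median -0.04), as were all 21 vasoactive and coagulation genes (median -0.02) and 27 of 28 sprouting and angiogenic genes (median 0.06). CDH5, the junctional cadherin of endothelium, was at 272, 264 and 194 CPM on senescent matrix, against 268, 146 and 256 CPM on young matrix. EDN1, the precursor of the vasoconstrictor endothelin-1, was at 71.6, 63.8 and 67.3 CPM on senescent matrix, against 66.6, 59.4 and 47.2 CPM on young matrix (interval -0.07 to 0.53). Of 16 Notch pathway genes 15 were bounded (median -0.05). HES1, a Notch target repressor and the exception, was at 3.42, 3.08 and 2.5 CPM on senescent matrix, against 4.25, 6.51 and 2.78 CPM on young matrix. Of 27 NF-kB and leukocyte adhesion genes 25 were bounded (median -0.01). ICAM1, a receptor for leukocyte integrins, was at 7.23, 7.51 and 4.69 CPM on senescent matrix, against 7.3, 5.68 and 7.89 CPM on young matrix. VCAM1 and SELE, which encode further leukocyte adhesion molecules, did not pass the filter on low counts.

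Further groups cover the programs known from senescent cells themselves. All 29 p53 targets were bounded (median 0.04). CDKN1A, the p21 inhibitor that holds senescent cells out of cycle, was at 273, 335 and 245 CPM on senescent matrix, against 282, 262 and 286 CPM on young matrix (interval -0.26 to 0.34). BTG2, a p53-induced antiproliferative gene, was at 18.8, 21.1 and 20.3 CPM on senescent matrix, against 12.1, 14.3 and 20.5 CPM on young matrix (log2 fold change 0.36 ± 0.17 (SE), unadjusted p 0.0488), and young replicate 4 reached the senescent levels. Of 50 cell cycle genes 49 were bounded, CENPE being the exception (median 0.06). A positive sign was seen in 38 of the 50, against 8892 of all 18015 genes. Some other groups leaned alike, such as 20 of 28 sprouting and angiogenic genes, and in replicate 1 the cell cycle median was -0.04. MKI67, a proliferation marker, was at 185, 141 and 170.1 CPM on senescent matrix, against 194, 95 and 211 CPM on young matrix. Of 45 senescence-associated secretory factors 38 were bounded (median -0.01). CXCL8, a neutrophil-attracting chemokine, was at 15.9, 21.5 and 20.7 CPM on senescent matrix, against 17.9, 28.8 and 12.1 CPM on young matrix (interval -0.78 to 0.74). IL6, a proinflammatory cytokine, was low throughout, at 1.16, 0.614 and 0.517 CPM on senescent matrix, against 0.895, 0.894 and 0.447 CPM on young matrix (interval -0.70 to 0.77). Of 38 interferon response genes 34 were bounded (median -0.01). IFI27, an interferon-induced mitochondrial protein, had the highest log2 fold change of that group, 1.10 ± 1.14 (SE), with levels of 0.666, 12.5 and 0.653 CPM on senescent matrix, against 4.48, 1.57 and 0.347 CPM on young matrix. Its interval of -1.32 to 3.52 spanned both directions. The 27 genes of the integrated stress and unfolded protein response and the 24 of cholesterol synthesis and uptake were all bounded (medians 0.06 and 0.01).

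Medians of 4 groups lay at -0.10 or -0.20, farther from that of all genes. Of 25 immediate early genes, 18 had a negative sign and the median was -0.10, with 23 bounded; FOS and FOSB, another AP-1 subunit, were the exceptions. FOSB was at 1.59, 1.47 and 0.653 CPM on senescent matrix, against 5.74, 1.7 and 1.19 CPM on young matrix, and young replicate 2 held the high value. With all 4 replicates the median of the immediate early genes was 0.02. Of 26 genes of the oxidative stress response under NRF2, 22 had a negative sign (median -0.10), and 23 were bounded. SRXN1, which reactivates oxidised peroxiredoxins, was at 5.06, 7.8 and 7.82 CPM on senescent matrix, against 11.5, 15.1 and 6.9 CPM on young matrix and was not bounded. Without young replicate 3 the median of the NRF2 group was -0.01. Of the 13 messages of the mitochondrial genome 12 were bounded (median -0.10). MT-ND6, a complex I subunit encoded on the strand opposite to most others, was at 47.7, 21.6 and 32.3 CPM on senescent matrix, against 45.7, 23.7 and 57.5 CPM on young matrix and was the exception. Of 78 ribosomal protein genes, 77 had a negative sign, 77 were bounded, and the median was -0.20 with all 6 libraries and 0.33 without young replicate 3. Ribosomal protein genes took 12.4% of the counts of young replicate 3, against 6.23% and 5.73% in young replicates 2 and 4 and 6.55%, 7.94% and 7.6% in senescent replicates 2, 3 and 4. RPS20, a small-subunit protein, was at 861, 1197 and 1047 CPM on senescent matrix, against 858, 2179 and 799 CPM on young matrix.

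**Figure D3:**
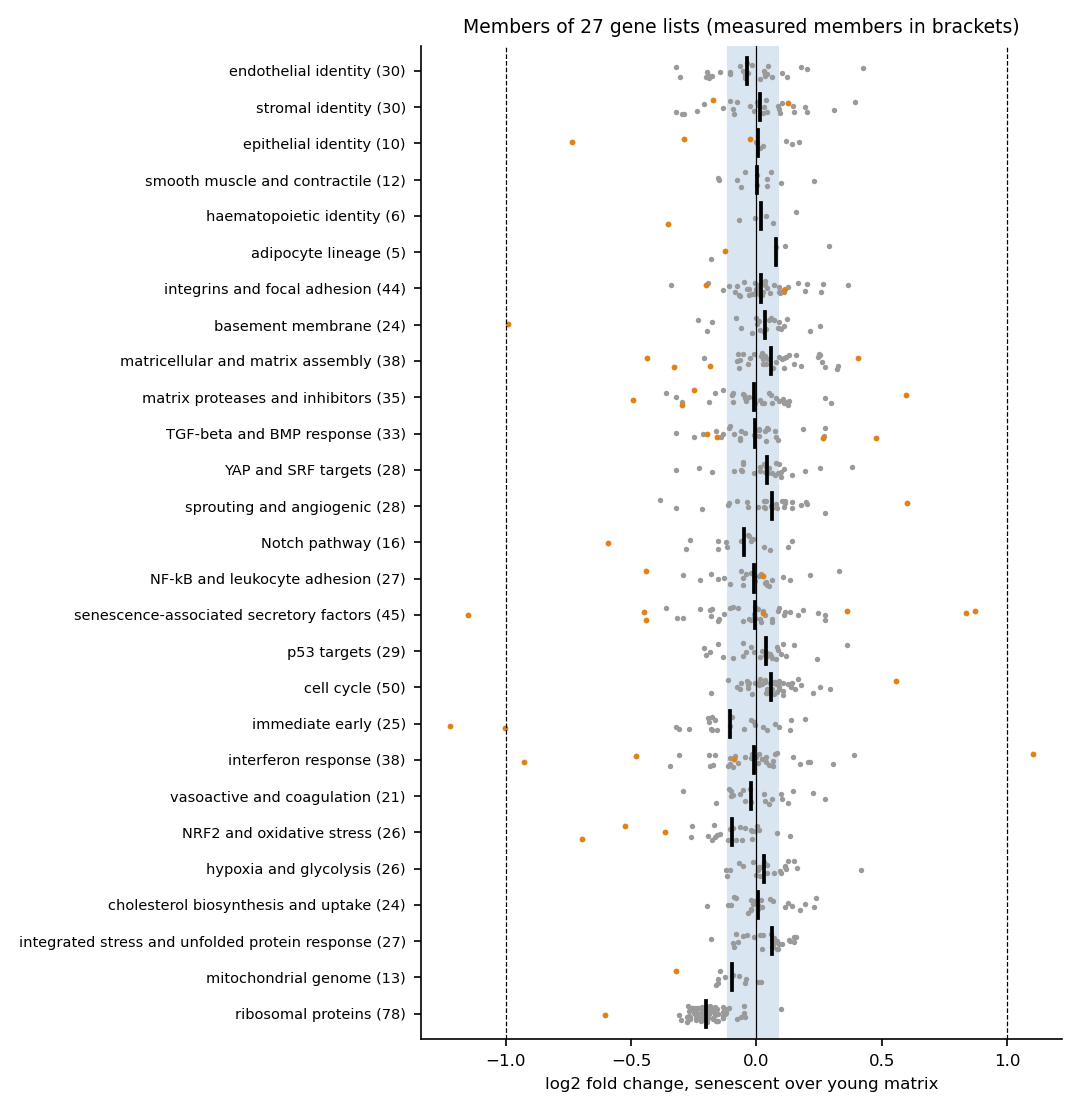
Log2 fold change, senescent over young matrix, of each measured member of 27 gene lists (points; grey, bounded within 2-fold; orange, not bounded), with the list median as a black bar, the middle 50% of all 18015 genes as the blue band and dashed lines at 2-fold. List medians lie between -0.20, for ribosomal proteins (0.33 without young replicate 3), and 0.08, for the adipocyte lineage.

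Cells did respond to matrix as such, which gives a set of genes on which a difference between the matrices could be read. Genes were picked on the mean of both matrices against control, a contrast that is orthogonal to senescent minus young when the groups vary alike; young replicate 3 varied more, so the separation is not complete. Against control, 206 of 18015 genes (1.14%) changed on matrix, 129 (0.716%) higher and 77 (0.427%) lower. None of the 206 was called between senescent and young matrix, and 176 of them (85.4%) were bounded within 2-fold, against 82.1% of all genes tested. SERPINB2, the plasminogen activator inhibitor PAI-2, was at 286, 407 and 427 CPM on senescent matrix, against 307, 393 and 351 CPM on young matrix and 68.8, 99.8 and 87.8 CPM in control cells. Its rise on matrix was 2.08 ± 0.20 on the log2 scale (adjusted p 0.00026, edgeR), while senescent over young was 0.09 ± 0.23 (SE) with an interval of -0.40 to 0.58. WNT16, a secreted Wnt ligand, was at 10.6, 11.3 and 9.45 CPM on senescent matrix, against 10.8, 10.1 and 10.2 CPM on young matrix, all above the 1.79, 3.56 and 2.28 CPM of control cells. CCN3, a matricellular protein of the same family as CCN1, was at 20.1, 23.4 and 15.8 CPM on senescent matrix, against 19.7, 15.7 and 21.1 CPM on young matrix, with 5.5, 4.57 and 5.75 CPM in control cells. NOS3, the endothelial nitric oxide synthase, was at 1429, 1785 and 876 CPM on senescent matrix, against 1768, 888 and 1557 CPM on young matrix, with 610.1, 305 and 383 CPM in control cells. The NOS3 interval between the matrices was wider, -0.84 to 0.75, and senescent replicate 4 and young replicate 3 were both low. KRT7, an epithelial keratin that the hybrid line expresses, fell to 535, 575 and 561 CPM on senescent matrix, against 489.7, 598 and 452 CPM on young matrix, below the 1367, 1074 and 1348 CPM of control cells. APLN, the vascular peptide apelin, was at 116, 111 and 94.7 CPM on senescent matrix, against 111, 94 and 92.8 CPM on young matrix, with 233, 157 and 227 CPM in control cells. These 6 belong to the 20 called protein-coding genes with the largest response on either side (10 each) among those that averaged 5 CPM or more in any group, and all 20 were bounded within 2-fold between senescent and young matrix. Some genes of lower level were not bounded. LCN10, a lipocalin, rose by 3.42 ± 0.44 on matrix (adjusted p 0.0021, edgeR). It was at 2.06, 1.47 and 1.39 CPM on senescent matrix, against 2.11, 0.955 and 2.67 CPM on young matrix. Its log2 fold change between the matrices was -0.22, and only its interval of -1.13 to 0.68 went beyond 2-fold. Bounds follow level: 95.6% of all genes between 1 and 10 CPM and 99.5% of those between 10 and 100 CPM were bounded within 2-fold.

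**Figure D4:**
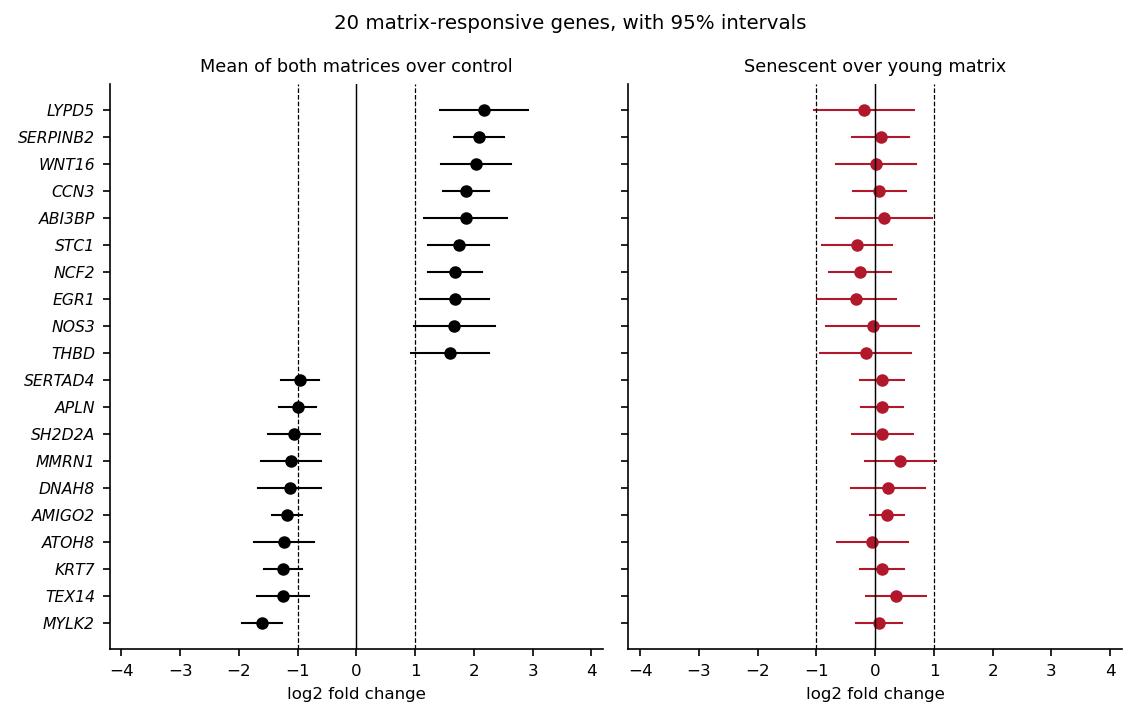
The 10 protein-coding genes most raised and the 10 most lowered on matrix, among called genes that averaged 5 CPM or more in any group: log2 fold change of both matrices over control (left, black) and of senescent over young matrix (right, red), with 95% intervals and dashed lines at 2-fold. The left values run from -1.61 (MYLK2) to 2.18 (LYPD5), whereas the right values all lie between -0.32 and 0.43.

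Most of these genes had a sign, between the matrices, opposite to that of their response, though no single one passed the test. Of the 129 raised genes 88 had a negative sign for senescent minus young, and of the 77 lowered genes 51 had a positive sign. Over all 18015 genes tested, 9123 had a negative and 8892 a positive sign. The genes share the same libraries, so a shift of 1 library moves many of them and the sign counts are not independent. The median difference in the direction of the response was -0.09 on the log2 scale, and it ran from -0.18 (without young replicate 3) to -0.03 (without senescent replicate 4) across the alternatives that leave out 1 matrix library. By library, raised genes had medians over control of 1.01, 1.14 and 0.88 in senescent replicates 2, 3 and 4, against 1.12, 0.96 and 1.10 in young replicates 2, 3 and 4. These overlapped. Lowered genes had medians of -0.87, -0.88 and -0.89 on senescent matrix, against -0.96, -0.96 and -1.03 on young matrix, which did not overlap. FAP and EFEMP1 fell on matrix (-0.69 ± 0.12, adjusted p 0.0091, and -0.78 ± 0.15, adjusted p 0.016, edgeR), and their levels were nearer to control on senescent matrix. DUSP6 and TSC22D1 rose on matrix (0.74 ± 0.13, adjusted p 0.014, and 0.49 ± 0.10, adjusted p 0.034, edgeR), and their levels were likewise nearer to control on senescent matrix. FAP, EFEMP1, DUSP6 and TSC22D1 were picked for their difference between the matrices, so they lend the pattern no support. Of the 206 genes, 7 had an unadjusted p under 0.05 between the matrices (edgeR), and these too were picked for that difference. FAP, SLC38A4, BTG2, LUCAT1 and FAM90A15P were nearer to control on senescent matrix, whereas AQP1 and FCRLA went the other way. AQP1 fell on matrix (-0.83 ± 0.18) and was farther from control on senescent matrix (senescent over young -0.47, interval -0.93 to -0.01). Set against control one at a time, senescent matrix gave 54 called genes (0.3%) and young matrix 117 (0.649%); both counts share the control libraries, and the difference between the matrices is the direct test above. The number of called genes was also unstable: without control replicate 4 the 206 became 42, without senescent replicate 3 they became 102, without young replicate 2 they became 123 and without senescent replicate 2 they became 128.

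Senescence of the MSCs was then compared across modes of exposure. With CM, 3 genes (0.0167%) were called between senescent and young MSCs: NEDD9, MAF and PCDH1. NEDD9, a scaffold protein of integrin signalling, was at 13, 13.3 and 12.9 CPM in senescent CM, against 5.69, 4.77 and 5.17 CPM in young CM, and its log2 fold change in CM was 1.31 ± 0.15 (adjusted p 0.00593, edgeR). On matrix NEDD9 was at 5.15, 6.48 and 5.18 CPM on senescent matrix, against 6.31, 4.87 and 6.43 CPM on young matrix, with an interval of -0.39 to 0.26. PCDH1, a protocadherin, had a log2 fold change of 1.18 ± 0.17 in CM and 0.07 ± 0.17 (SE) on matrix, and both PCDH1 and NEDD9 were bounded within 2-fold on matrix. MAF, a basic leucine zipper transcription factor, had a log2 fold change of 2.58 ± 0.34 in CM, but its matrix libraries were all under 0.2 CPM. Tested directly, the effect on matrix minus that with CM passed edgeR's test in 0 of 18015 genes (0%). DESeq2 called 1 gene, and edgeR placed 384 genes under an unadjusted p of 0.05. The difference for NEDD9 was -1.38 ± 0.22 (adjusted p 0.196, edgeR).

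In direct co-culture MSCs and endothelial cells were mixed in equal parts, and the 10 stromal markers summed to 378, 297 and 269 CPM with senescent MSCs, against 156, 149 and 104 CPM with young MSCs, all above the matrix libraries. Their part in the following counts was not tested. In co-culture, 85 of 18492 genes (0.46%) were called between senescent and young MSCs, 61 higher and 24 lower. Of the 69 that were also tested on matrix, 0 were called there and 51 (73.9%) were bounded within 2-fold, while 39 were under 1 CPM in both matrix groups. The effect on matrix minus that in co-culture was called for 9 genes (0.0487%), 7 lower and 2 higher: IL1B, PTGES, MMP3, NOTCH3, C1QTNF1, MEDAG and C11orf96 on the lower side, and HIF1A-AS3 and an unnamed gene, ENSG00000257732, on the higher side. IL1B, the cytokine interleukin-1 beta, was at 16.2, 11.1 and 11 CPM in senescent co-culture, against 2.19, 2.86 and 2.05 CPM in young co-culture. On matrix IL1B was at 3.61, 4.39 and 2.1 CPM on senescent matrix, against 4.24, 4.31 and 2.87 CPM on young matrix, with overlap between the groups. The difference between the modes was -2.62 ± 0.40 (adjusted p 0.0126, edgeR). NOTCH3, a Notch receptor typical of mural and stromal cells, was at 3.67, 2.94 and 3.39 CPM in senescent co-culture, against 0.702, 0.525 and 0.824 CPM in young co-culture, and at 0.25, 0.138 and 0.156 CPM on senescent matrix, against 0.232, 0.208 and 0.169 CPM on young matrix (difference -2.45 ± 0.35, adjusted p 0.0101, edgeR). MMP3, a stromelysin, was at 3.05, 1.87 and 3.19 CPM in senescent co-culture, against 0.451, 0.483 and 0.281 CPM in young co-culture, and at 0.718, 0.614 and 0.361 CPM on senescent matrix, against 0.53, 0.784 and 0.387 CPM on young matrix. PTGES, which makes prostaglandin E2, was at 5.1, 3.71 and 2.1 CPM in senescent co-culture, against 0.722, 0.754 and 0.487 CPM in young co-culture, and at 0.562, 0.577 and 0.361 CPM on senescent matrix, against 0.53, 0.674 and 0.397 CPM on young matrix. The control library of replicate 1, which had no MSC product but carried stromal RNA, held these 4 messages at higher levels than the other control libraries. There NOTCH3 was at 132 CPM, IL1B at 69.7 CPM, PTGES at 10.2 CPM and MMP3 at 1.28 CPM. The means of control replicates 2 to 4 were 0.142, 1.25, 0.444 and 0.445 CPM in the same order. Which cells of the co-culture carried these messages was not tested. ENSG00000257732 is annotated as antisense and HIF1A-AS3 as a lincRNA with an antisense name, and the strand setting of the counting is not given in the sources used here, so both values are uncertain. The 9 became 1 without senescent co-culture replicate 2, 1 without senescent matrix replicate 4 and 3 without young co-culture replicate 4.

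**Figure D5:**
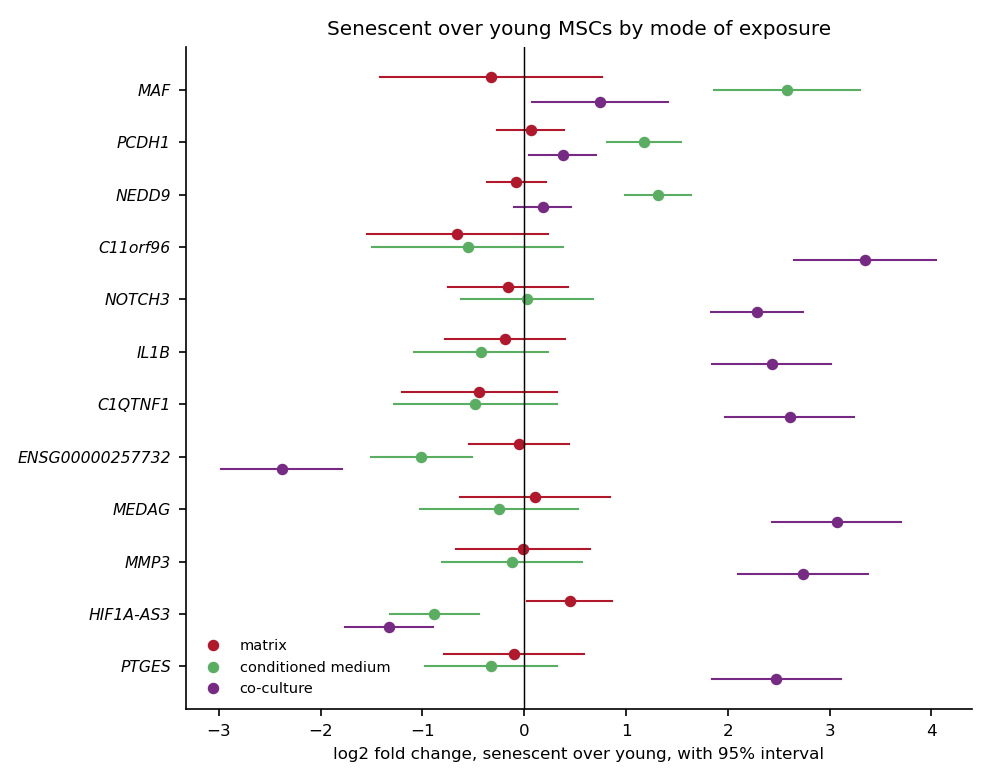
Log2 fold change, senescent over young MSCs, of 12 genes on matrix (red), with CM (green) and in co-culture (purple), with 95% intervals; the first 3 genes were called with CM and the other 9 for the difference between matrix and co-culture. CM values come from the fit of 15 libraries and the others from the fit of 21; the red points of the 12 genes lie between -0.66 and 0.45.

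Replicate 1 gives 1 more senescent library and 1 more young library, with no replicate check. Both carried stromal RNA: TERT, the gene with which the MSC line was immortalised, was at 1274 CPM in the senescent library and 970.4 CPM in the young library, against 1.22 to 1.96 CPM in the other 6 matrix libraries. Over 9720 genes of at least 5 CPM, 3 differed beyond 2-fold (EEF1D, YWHAE and the pseudogene DHFRP1), and 28 differed beyond 1.5-fold, 17 higher and 11 lower. Of those 28, 5 had the same sign in replicates 2 to 4 and 23 the opposite sign. The same split over all 9720 genes was not counted, so it is not read as particular to the 28. CXCL8 was at 145 CPM in the senescent library and 80.6 CPM in the young library, THBD, the anticoagulant receptor thrombomodulin, at 188 CPM in the senescent library and 121 CPM in the young library, and STC1, a secreted glycoprotein, at 172 CPM in the senescent library and 109 CPM in the young library. In replicates 2 to 4 the log2 fold changes of these genes were -0.02 for CXCL8, -0.16 for THBD and -0.32 for STC1. Genes raised on matrix in replicates 2 to 4 had a median over the control library of replicate 1 of 0.40 in its senescent library and 0.27 in its young library. Lowered genes had medians of -0.40 in its senescent library and -0.22 in its young library, the reverse of the order in replicates 2 to 4. That control library carried stromal RNA as well, with stromal markers summing to 9201 CPM. The part of the stromal RNA in these values was not tested.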

How the data were processed

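The values deposited by the authors are raw counts of reads per gene, in whole numbers and without normalisation. Poly(A) RNA was made into strand-marking libraries, per the labels' protocols, and, per the submitters' processing notes, HISAT2 2.2.1 aligned the reads to GRCh38 and featureCounts 2.0.1 counted them. The annotation release and the strand setting of the counting were not given in the sources used here, so overlapping and antisense genes are uncertain. Of 60648 entries, 44 Y copies of pseudoautosomal genes were left out. Names came from a gene name table (60462 of 60604 entries) and positions from GENCODE 29 (58336). Library totals ran from 66320519 to 111512357 over the 27 libraries, and 0 columns belonged to other samples. The extraction protocol names MSCs as the RNA source whereas the cell type label gives endothelial cells, and that label is followed here.

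Counts were tested with edgeR 4.0.16 in R 4.3.3 (quasi-likelihood F-test, 2-sided, filterByExpr with a minimum of 10 counts, TMM scaling, Benjamini-Hochberg over all genes tested, threshold 0.05). Control, matrix and CM libraries of replicates 2 to 4 were fitted together with 1 coefficient a group (15 libraries), and co-culture was added for its own comparisons (21 libraries); no replicate block entered. The 95% intervals used the moderated SE of that fit (residual df 10, prior df 5.50), and the bounds used 2 one-sided tests at 2-fold and at 1.5-fold. Levels are CPM with TMM scaling over all 27 libraries, and ratios in replicate 1 used a prior of 0.125. Scripts were tested on simulated data. Alternatives were a replicate block, RLE scaling, no filter, all 4 replicates, the 6 matrix libraries alone, DESeq2 1.42.0 and leaving out each library; leaving out replicate 3 of both matrix groups was added after seeing the data.

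The libraries compared, the 27 gene lists and the rule for named genes were chosen with earlier results of these data known. The rule names protein-coding genes: the 8 of lowest unadjusted p on each side with at least 5 CPM in 1 group and no overlap; the 10 highest and 10 lowest called on matrix against control with at least 5 CPM in 1 group; genes called with CM and the 8 highest and 4 lowest called in co-culture; from each list the 2 most abundant members and the extremes of fold change at 5 CPM or more; and a set of 42 fixed genes. Values are printed for some of these genes only, and 1 fixed gene is not reported here. Others named in the text (MALAT1, EEF1D, FOSB, IFI27, HES1, LCN10, AQP1, SLC38A4, LUCAT1, FAM90A15P, FCRLA, HRAS, CEP170, PHRF1, the 9 genes of the matrix and co-culture difference and the genes of replicate 1) were chosen after their values were seen.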

Additional observations from a re-analysis of the deposited data

Results flagged for a closer look

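Replicate 1 of both matrix groups lay far from replicates 2 to 4 of its own group in markers of stromal cells. COL1A1 stood at 2281 CPM in the senescent library and 1887 CPM in the young library, and TERT at 1274 CPM in the senescent library and 970.4 CPM in the young library. The summed stromal markers reached 5926 CPM in the senescent library and 5044 CPM in the young library, and the genes of the stromal identity list took 1.05% of the counts of the senescent library and 0.975% of those of the young library. Summed smooth muscle markers were at 724 CPM in the senescent library and 699 CPM in the young library, and summed epithelial markers at 1897 CPM in the senescent library. Chance alone would set 1 library apart in about 1 of 20 sets of 4, but these measures overlap and are the ground on which replicate 1 was shown apart, so nothing is read from how many of them stood out.

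For 9 genes the effect of senescence on matrix differed from that in co-culture by the test of the difference itself. The difference on the log2 scale (matrix minus co-culture) was -4.0 ± 0.54 for C11orf96, -3.05 ± 0.47 for C1QTNF1, -2.96 ± 0.46 for MEDAG, -2.75 ± 0.44 for MMP3 and -2.62 ± 0.40 for IL1B. It was -2.58 ± 0.45 for PTGES, -2.45 ± 0.35 for NOTCH3, 1.77 ± 0.29 for HIF1A-AS3 and 2.33 ± 0.37 for ENSG00000257732. Each value is given with its SE, 3 libraries a group.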

How the results depend on the processing

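The count of 0 genes between senescent and young matrix was also 0 with the replicate block, RLE scaling, all 4 replicates with and without the block, the 6 matrix libraries alone with and without the block, DESeq2, each library left out in turn and replicate 3 of both groups left out. With no filter on low counts it was 37 of 36163 genes (11 higher, 26 lower). Of those 37, 31 pass the filter, and in 9 the groups do not overlap; that fit gave every gene the spread of the trend at its level. Genes bounded within 2-fold numbered 12739 to 16252 over these alternatives. Genes bounded within 1.5-fold numbered 12230 with all 4 replicates and the block, 0 without replicate 3 of both groups, and 0 to 4445 with 1 library left out; fewer samples widen each interval. Genes changed on matrix against control numbered 488 with the block, 457 with no filter, 4 with all 4 replicates, 488 with DESeq2 and 42 to 265 with 1 library left out. The difference between matrix and CM gave 49 genes with no filter, 1 with DESeq2 and 0 to 1 with 1 library left out. The difference between matrix and co-culture gave 24 genes with the block, 101 with no filter, 0 with all 4 replicates, 27 with DESeq2 and 1 to 11 with 1 library left out. Senescent co-culture has no library of replicate 1, so in the fit of all 4 replicates that group alone kept replicates 2 to 4. Apart from the effect of fewer samples, the cause of these shifts in the counts of genes was not tested. Of 1164 recomputed gene values between the matrices 43 moved by more than the spread between replicates, and of 405 list medians 11 did; the 20 matrix-responsive genes kept their sign, and 58 of their 280 recomputed tests missed the threshold.

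Same-numbered libraries deviated together with correlations of 0.37, 0.17 and 0.03 for replicates 2, 3 and 4. A minimum of 0.1 asked of each number was met by replicates 2 and 3 and missed by replicate 4. Replicates 2 and 3 correlated best with their own number, and replicate 4 did not. With the replicate block, 0 genes were called between the matrices and 10816 (60.0%) were bounded within 1.5-fold, against 7227 (40.1%) without the block. Under 1 CPM, where the median interval was a factor of 1.87 to either side, 45.7% of genes could be bounded within 2-fold.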

Other observations

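The gene lists not described above gave no called member either. Of 30 stromal identity genes 28 were bounded within 2-fold between senescent and young matrix (median log2 fold change 0.02), of 12 smooth muscle and contractile genes all 12 (median 0.00), of 10 epithelial identity genes 7 (median 0.01), of 6 haematopoietic genes 5 (median 0.02) and of 5 adipocyte lineage genes 4 (median 0.08). FSTL1, a secreted follistatin-like glycoprotein, was at 1366, 1397 and 1536 CPM on senescent matrix, against 1390.4, 997 and 1354 CPM on young matrix, and NT5E, the ectonucleotidase CD73 that makes adenosine, at 408, 433 and 420.4 CPM on senescent matrix, against 386, 348 and 405 CPM on young matrix. All 26 hypoxia and glycolysis genes were bounded (median 0.03). GAPDH, a glycolytic dehydrogenase, was at 7097, 8593 and 5767 CPM on senescent matrix, against 6517, 7649 and 6227 CPM on young matrix, and its interval was -0.33 to 0.48. A set of 42 genes was fixed by name with earlier results of these data known. It held genes of adhesion, vessel tone, inflammation and growth, matrix-responsive genes, a keratin and stromal markers. Of the 42, 40 were tested and all 40 were bounded within 2-fold. Their log2 fold changes lay between -0.32 and 0.38, and their lowest unadjusted p was 0.0557 (edgeR). Of all protein-coding genes tested, 91.7% were bounded within 2-fold.

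Some of the largest fitted differences belonged to genes with 1 or 2 high libraries in a group. HRAS, a small GTPase of growth signalling, was at 13.8, 0.426 and 0.487 CPM on senescent matrix, against 0.596, 0.808 and 0.447 CPM on young matrix. CEP170, a centrosomal protein, was at 1.26, 11.2 and 12.4 CPM on senescent matrix, against 1.15, 0.87 and 2.57 CPM on young matrix. PHRF1, a ubiquitin ligase, was at 0.219, 0.238 and 0.107 CPM on senescent matrix, against 4.32, 1.04 and 1.2 CPM on young matrix. In HRAS 1 senescent library was high and in CEP170 2 were, while the 3 young libraries of PHRF1 were above the 3 senescent ones. None of these genes was called, and each was among the 37 called when no filter on low counts was applied.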
